A study of Homo sapiens with 9 samples.

Results

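The 73 genes described here encode proteins of the cytosolic ribosome, the particle that translates messenger RNA in the cytoplasm. The small subunit reads the messenger RNA and the large subunit joins the amino acids, and each protein is needed in about equal number in a finished particle, the flexible stalk apart. Messenger RNAs for ribosomal proteins are among the most abundant of a growing cell, and most begin with a C and an unbroken run of pyrimidines, the 5′ terminal oligopyrimidine (5′ TOP) motif, through which growth signals that act on mTORC1 and LARP1 regulate their translation and storage. The genes were chosen by symbol, as RPL (large subunit) or RPS (small subunit) followed by a number and at most a closing A or X, together with the stalk genes RPLP0, RPLP1 and RPLP2 and with RPSA and FAU. Of 58920 symbols counted, 78 had this form, and 73 of those reached the floor of 900 counts summed over the 9 libraries, 45 for the large and 28 for the small subunit.

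The libraries came from LIM1215, a human colorectal cancer cell line whose growth depends on the epidermal growth factor receptor (EGFR). LIM1215-parental was cultured in parallel without drug, and LIM1215-R1 and LIM1215-R2 were derived from it independently by growth in rising concentrations of cetuximab, an antibody that blocks EGFR. The resistant lines are populations and not single-cell clones, and all RNA was taken from untreated cells in basal culture. Each line was represented by 3 libraries of polyadenylated RNA, which the study calls technical replicates, so that p-values measured only the spread between these libraries and a difference between lines cannot be told apart from a difference between cultures or harvests.

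Gene counts summed to between 13737416 and 18725014 per library. The epithelial markers EPCAM, KRT8 and KRT18 were at 705 CPM or more in all libraries (CPM, counts per 1e6 counts of the TMM-scaled library), whereas KRT20 was at 0. Of 10 markers of immune, stromal and endothelial cells, PTPRC, CD3E and COL1A2 were at 0 in all libraries and the highest, CD68, ranged from 6.79 to 14.2 CPM. The summed level of these 10 markers was 9.74 to 13.3 CPM in LIM1215-parental, 13.5 to 16.0 CPM in LIM1215-R1 and 9.93 to 12.0 CPM in LIM1215-R2. Replicates 1 and 2 of LIM1215-R1 differed most among libraries of a line, with 6.58 times the variance that counting error gives, against 1.89 for the closest pair. In bulk RNA a smaller fraction of a cell type and less RNA per cell cannot be told apart.

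Sequence at the annotated transcription starts was read from RefSeq promoters (GRCh38.p14, 250 bases before to 50 after each start), which held 59 of the 73 genes. A C followed by at least 4 pyrimidines lay within 10 bases of a listed start in 54 of the 59 genes (91.5%), against 11654 of 27305 genes with a promoter entry (42.7%). The following windows hold 15 bases on either side of the start, 5′ to 3′ on the gene's own strand, with the pyrimidine run in capitals. They show genes whose levels are given below, with 2 that lack the run, RPS29 and the paralog RPS27L. The positions are chr1:6199581-6199610 for RPL22 (minus strand), chr19:49487593-49487622 for RPL13A (plus), chr9:19380222-19380251 for RPS6 (minus), chr6:132814554-132814583 for RPS12 (plus), chr12:120201097-120201126 for RPLP0 (minus), chr11:65122120-65122149 for FAU (minus), chr13:27251543-27251572 for RPL21 (plus), chr3:170870181-170870210 for RPL22L1 (minus), chr14:49598696-49598725 for RPS29 (minus) and chr15:63157463-63157492 for RPS27L (minus).
RPL22: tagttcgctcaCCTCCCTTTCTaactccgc
RPL13A: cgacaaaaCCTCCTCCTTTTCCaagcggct
RPS6: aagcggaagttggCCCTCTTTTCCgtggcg
RPS12: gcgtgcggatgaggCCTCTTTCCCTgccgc
RPLP0: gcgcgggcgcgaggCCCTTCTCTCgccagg
FAU: cgccctcgCTTCTTCCTCTTTCTCgactcc
RPL21: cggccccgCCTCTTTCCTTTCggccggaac
RPL22L1: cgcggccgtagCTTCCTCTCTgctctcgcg
RPS29: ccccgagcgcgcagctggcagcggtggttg
RPS27L: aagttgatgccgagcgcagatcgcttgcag

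Without a run at a listed start were RPL15, RPL27, RPL6, RPS29 and RPS4X. Their median log2 fold changes against LIM1215-parental were -0.09 in LIM1215-R1 and -0.23 in LIM1215-R2. In the 54 genes with the run they were -0.11 and -0.27. Between the resistant lines the medians were -0.17 without and -0.16 with the run. A relation of the run to the changes was not tested. The run was found in all 8 matched genes of a list drawn up for 5′ TOP mRNAs, mainly translation factors, in 29 of 69 genes for mitochondrial ribosomal proteins (42.0%) and in 11 of 43 nucleolar assembly factors (25.6%). Further words were searched on both strands over the 300 bases, none contained in another. TATAAA occurred in 5 of the 59 genes (8.47%, against 14.0% of all genes with an entry) and GGGCGG in 34 (57.6% against 48.3%). CCGGAAGT or CCGGAAGC occurred in 12 (20.3% against 8.77%), and AAGATGGC or AAAATGGC in 9 (15.3% against 5.65%). These counts describe letters and were not tested.

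All 73 genes had counts in all 9 libraries. In LIM1215-parental their mean levels ran from 10.3 CPM for RPL17 to 2260 CPM for RPL3, with a median of 648 CPM. The 10 highest genes held 31.7% of the counts of the group in the parental line, against 30.7% in LIM1215-R1 and 30.9% in LIM1215-R2. Per kilobase of a representative transcript, the highest in LIM1215-parental was RPS2, a protein of the messenger RNA entry channel, at 2300 ± 103 CPM per kb (SD, n = 3). It was followed by RPS12 at 2030 ± 64.2 CPM per kb, and RPLP0 at 1770 ± 62.3 and RPL3 at 1740 ± 67.2 CPM per kb, which lay within their spread, were also among the highest 5. The lowest were RPL17 at 16.8 ± 2.34, RPL14 at 88.7 ± 1.89, RPL37 at 101 ± 3.64, RPS26 at 125 ± 10.4 and RPL22 at 148 ± 6.38 CPM per kb. The order depended on the length used. RPL37 and RPL14 have long representative transcripts (7573 and 7136 bases), and per kilobase of coding sequence RPL37 ranked 5 and RPL14 ranked 57 of 73. RPL17 ranked 73 and RPS26 between 69 and 72 by transcript, coding and union-exon length, whereas RPS2 and RPS12 stayed within the highest 8 by all of these. Of the 31-base words of the transcript, 92.3% in RPL17 and 63.8% in RPS26 recur elsewhere on the chromosomes. Pseudogenes named after RPL17 held 1236 counts, against 1409 for RPL17 itself. Whether reads lost to copies lowered these levels was not tested.

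Ribosomal protein genes took a smaller share of all gene counts in both resistant lines than in the parental line. The share was 5.71, 5.76 and 5.69% in the LIM1215-parental libraries, 5.08, 5.30 and 5.17% in LIM1215-R1 and 4.56, 4.62 and 4.84% in LIM1215-R2. No library of a line overlapped with those of another. The mean was 5.72 ± 0.037% in the parental line, against 5.18 ± 0.11% in LIM1215-R1 and 4.67 ± 0.15% in LIM1215-R2 (SD, n = 3), or 0.906 and 0.817 times the parental share. Large subunit genes fell from 3.59 ± 0.036% to 3.28 ± 0.084% and 2.96 ± 0.094% of counts, and small subunit genes from 2.14 ± 0.0056% to 1.90 ± 0.028% and 1.71 ± 0.053%. The 3 lines kept this order with mitochondrially encoded genes, or the 100 other genes of highest count, left out of the total.

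**Figure D1:**
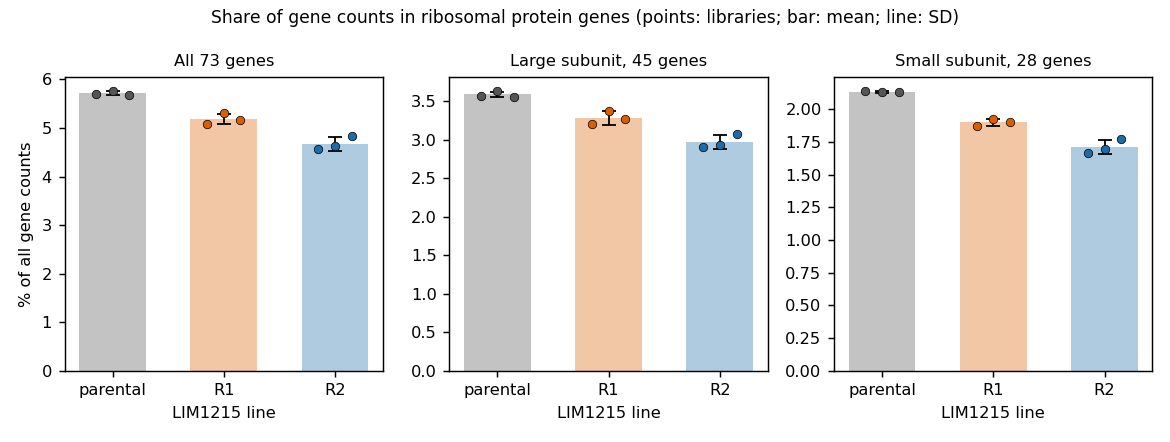
Percent of all gene counts in the 73 genes, and in those of each subunit, for LIM1215-parental, LIM1215-R1 and LIM1215-R2. Points are libraries, bars means and lines SD (n = 3); the 3 groups do not overlap in any panel, from 5.69 to 5.76% in the parental line down to 4.56 to 4.84% in LIM1215-R2 for all genes.

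In LIM1215-R1 against LIM1215-parental, 27 of the 73 genes were lower and 2 were higher at an adjusted p of at most 0.01 (edgeR quasi-likelihood test, Benjamini-Hochberg adjustment over 19102 genes). Among all genes tested, 13.4% were lower and 14.0% higher. The number lower was 17 without replicate 3 of LIM1215-R1, against 10.8% of all genes, and 19 to 28 without any other library. The number higher was 5 without replicate 1 of LIM1215-R1, 3 without replicate 2 of LIM1215-parental or replicate 3 of LIM1215-R2, and 1 without any other library. Among the largest decreases were those of RPL22, RPL13A, RPS6 and RPS23, and RPL38 was among the increases. The median log2 fold change of the group was -0.11, a level 7.4% lower, against -0.01 over all genes tested. The fitted change was below 0 in 57 genes (78.1%, against 51.1% of all genes), and in 34 the highest LIM1215-R1 library was below the lowest parental library, against 22.4% of all genes. No member reached the log2 fold change of 1.5 that the study asks of a differentially expressed gene, against 5.14% of all genes, and none did at an unadjusted p under 0.05 or with DESeq2 either.

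RPL22, a protein at the outer rim of the exit tunnel that is dispensable for general protein synthesis, had the largest decrease in both lines. Its level was 312, 290 and 314 CPM in LIM1215-parental, 230, 211 and 202 CPM in LIM1215-R1 and 206, 206 and 201 CPM in LIM1215-R2. The parental libraries lay above all resistant ones, while the resistant lines overlapped. The log2 fold change was -0.51 (SE 0.049, adjusted p = 2.29e-09) in LIM1215-R1 and -0.58 (SE 0.049, adjusted p = 1.87e-10) in LIM1215-R2.

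RPL13A, a large subunit protein also known for binding messenger RNA outside the ribosome, stood at 1820, 1930 and 1800 CPM in LIM1215-parental, 1430, 1520 and 1500 CPM in LIM1215-R1 and 1250, 1300 and 1380 CPM in LIM1215-R2. Its 3 groups did not overlap, and its log2 fold changes were -0.32 (adjusted p = 1.37e-07) and -0.50 (adjusted p = 2.9e-11). RPS6, the substrate of the S6 kinases downstream of mTORC1, was at 2000, 1880 and 1980 CPM in LIM1215-parental, 1710, 1600 and 1630 CPM in LIM1215-R1 and 1550, 1530 and 1520 CPM in LIM1215-R2. Its transcript was lower in both resistant lines (log2 fold changes of -0.25 and -0.35, adjusted p = 1.66e-06 and 5.14e-09).

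RPL38, a short protein of the large subunit, was at 309, 358 and 313 CPM in LIM1215-parental, 342, 422 and 377 CPM in LIM1215-R1 and 308, 315 and 351 CPM in LIM1215-R2. The increase in LIM1215-R1 was called (log2 fold change 0.22, SE 0.063, adjusted p = 0.00708) although the groups overlapped. Leaving out replicate 1 or 3 of LIM1215-parental, replicate 2 or 3 of LIM1215-R1 or replicate 1 or 2 of LIM1215-R2 moved the adjusted p to 0.0513, 0.0473, 0.0679, 0.0246, 0.0108 and 0.0138. With the GC and length trends removed the log2 fold change was 0.13 (adjusted p = 0.0212).

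**Figure D2:**
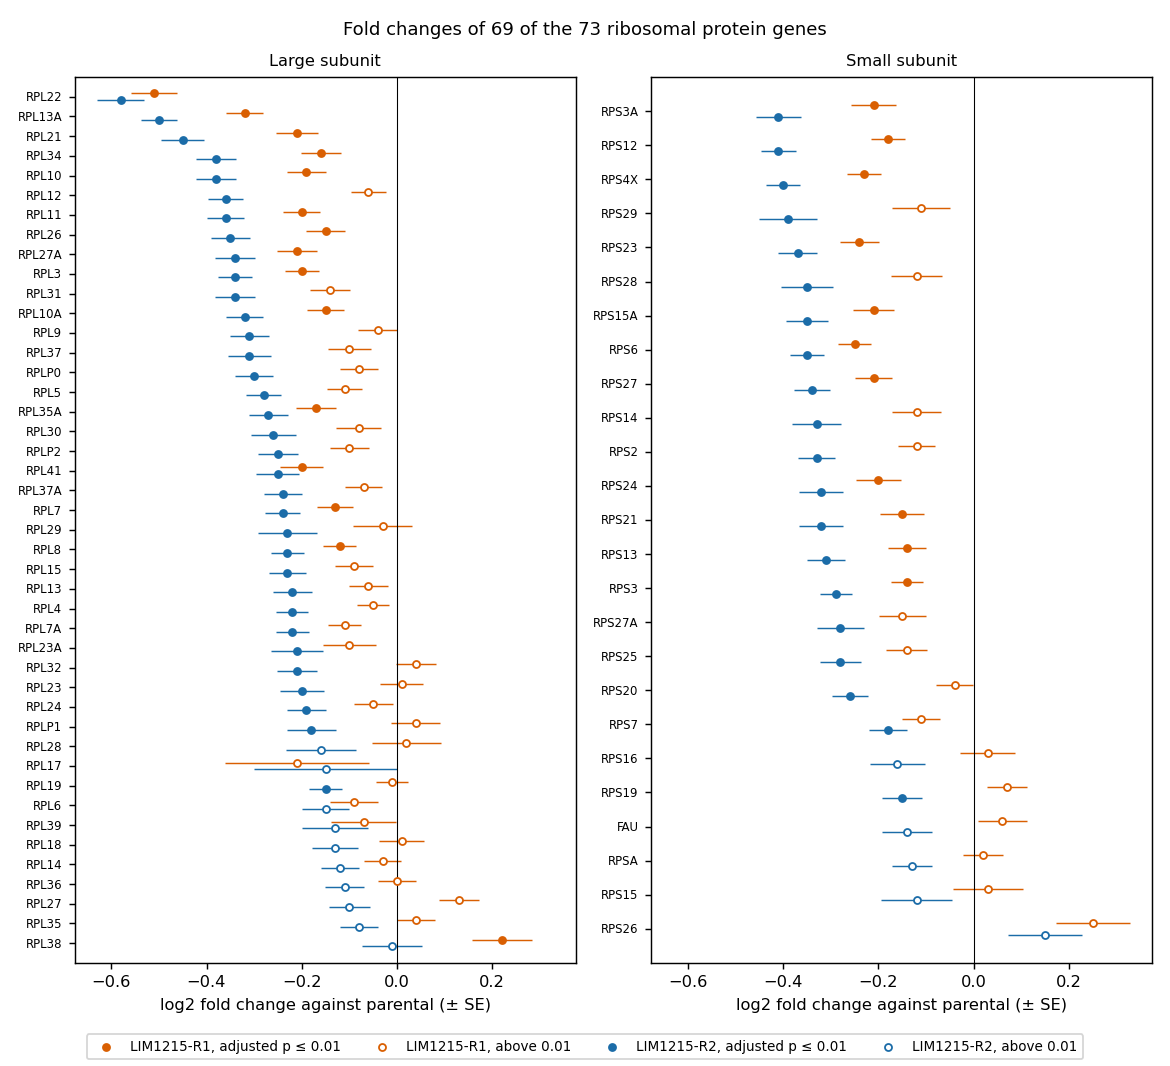
Log2 fold change (± SE) of 69 of the 73 genes in LIM1215-R1 (orange) and LIM1215-R2 (blue) against LIM1215-parental, by subunit and ordered by the LIM1215-R2 value. Filled points have an adjusted p of at most 0.01; values run from -0.58 (RPL22 in LIM1215-R2) to 0.25 (RPS26 in LIM1215-R1).

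In LIM1215-R2 against LIM1215-parental, 56 of the 73 genes were lower, 34 of 45 in the large and 22 of 28 in the small subunit, and 1 was higher. Among all genes tested 11.6% were lower and 12.3% higher. The single higher call was lost with DESeq2, with total counts, with at least 10 counts in every library, and without replicate 1 or 3 of LIM1215-parental, replicate 3 of LIM1215-R1 or replicate 2 or 3 of LIM1215-R2. The median log2 fold change was -0.26, a level 16.6% lower, against -0.00 over all genes; it was -0.23 in the large and -0.32 in the small subunit. The fitted change was below 0 in 71 genes, and in 62 genes all LIM1215-R2 libraries were below all parental ones, against 21.6% of all genes. Besides RPL22 and RPL13A, the largest decreases included that of RPL21, a large subunit protein. RPL21 was at 271, 272 and 269 CPM in LIM1215-parental and 197, 196 and 203 CPM in LIM1215-R2 (log2 fold change -0.45, SE 0.045, adjusted p = 4.91e-09). No member passed the log2 fold change of 1.5, against 4.82% of all genes, nor at an unadjusted p under 0.05 or with DESeq2. Both comparisons use the same parental libraries.

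Compared directly, LIM1215-R2 was below LIM1215-R1 in 34 of the 73 genes and above it in none, against 3.77% of all genes lower and 3.39% higher. The fitted change was below 0 in 72 members (98.6%), against 50.5% of all genes. With DESeq2, 40 members were lower and 0 higher at an adjusted p of at most 0.01, against 3.76 and 3.15% of all genes. The median log2 fold change was -0.17, against -0.00 over all genes, and in 52 genes the lines did not overlap with LIM1215-R2 lower, against 14.0% of all genes. No member passed the log2 fold change of 1.5, against 0.764% of all genes, by edgeR or DESeq2. The number of members lower changed with single libraries. It was 9 without replicate 1 of LIM1215-R2, 11 without replicate 2 of LIM1215-R2 and 14 without replicate 3 of LIM1215-R1. Of all genes, 2.41, 2.38 and 2.63% were lower in these fits. With the GC and length trends removed it was 25, against 4.57% of all genes, and the median log2 fold change was -0.090.

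The largest difference between the resistant lines was in RPL12, a protein at the base of the stalk. It was at 810, 783 and 801 CPM in LIM1215-parental, 752, 788 and 750 CPM in LIM1215-R1 and 615, 614 and 642 CPM in LIM1215-R2. LIM1215-R1 overlapped with the parental line and LIM1215-R2 lay below both (log2 fold change -0.29 against LIM1215-R1, SE 0.038, adjusted p = 2.99e-06). RPS29, a small zinc-binding protein of the small subunit head, was at 141, 173 and 153 CPM in LIM1215-R1 and 127, 123 and 137 CPM in LIM1215-R2. The lines did not overlap (-0.27, adjusted p = 0.00276), and the adjusted p was 0.0269 and 0.0133 without replicates 2 and 3 of LIM1215-R1 and 0.0259 and 0.0401 without replicates 1 and 2 of LIM1215-R2. RPL9, RPL32, RPL21, RPL27, RPS28 and RPS12 followed, with log2 fold changes between -0.26 and -0.23. Of these, RPS28 lost its call in 5 of 15 alternatives (without replicate 2 or 3 of LIM1215-R1 or replicate 1 or 2 of LIM1215-R2, and with the GC and length trends removed), RPL27 without replicate 2 of LIM1215-R2 (adjusted p = 0.0102) and RPS12 with the trends removed (0.0147).

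By region of the ribosome, or as fusion precursors, each of 6 lists held genes that were lower in LIM1215-R2. Of all 73 members 76.7% were lower there, against 11.6% of all genes, so that this does not set any list apart. In LIM1215-R1 the shares were 37.0% of members and 13.4% of all genes. The stalk proteins RPLP0, RPLP1 and RPLP2, which recruit elongation factors, were lower in LIM1215-R2 (log2 fold changes of -0.30, -0.18 and -0.25) and none was called in LIM1215-R1 (-0.08, 0.04 and -0.10). The call of RPLP1 (adjusted p = 0.00698) was lost with DESeq2 (0.0142) and without replicate 2 of LIM1215-parental, replicate 3 of LIM1215-R1 or replicate 1 or 2 of LIM1215-R2 (adjusted p = 0.0435, 0.0138, 0.0327 and 0.0603). RPLP0 was at 1920, 2030 and 1910 CPM in LIM1215-parental, 1780, 1940 and 1830 CPM in LIM1215-R1 and 1500, 1590 and 1670 CPM in LIM1215-R2. It was thus below both other lines in all LIM1215-R2 libraries (-0.22 against LIM1215-R1, adjusted p = 0.000345).

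RPL5 and RPL11, which carry the 5S ribosomal RNA into the particle and bind MDM2 when free, were lower in LIM1215-R2 (-0.28 and -0.36). In LIM1215-R1 RPL11 was called (-0.20, adjusted p = 0.000153), and RPL5 was at -0.11 (adjusted p = 0.0199). RPL11 was at 904, 870 and 932 CPM in LIM1215-parental, 823, 766 and 768 CPM in LIM1215-R1 and 703, 697 and 712 CPM in LIM1215-R2, with no overlap between lines. RPL3 and RPL10, near the peptidyl transferase centre, were lower in both resistant lines, by values of -0.20 and -0.19 in LIM1215-R1 and -0.34 and -0.38 in LIM1215-R2. RPL8, of the same region, was lower in LIM1215-R2 (-0.23, adjusted p = 5.19e-06). Its value in LIM1215-R1 was -0.12 (adjusted p = 0.00802), a call lost in 10 of 15 alternatives: DESeq2, its size factors, scaling without the members, and leaving out any library but replicate 2 of LIM1215-R1 or replicate 3 of LIM1215-R2 (adjusted p up to 0.0571). With the GC and length trends removed that value was -0.38 (adjusted p = 2.97e-13).

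At the exit tunnel and its rim, 2 of 9 genes were lower in LIM1215-R1 (RPL22 and RPL26) and 6 of 9 in LIM1215-R2, where RPL17, RPL35 and RPL39 did not pass. Of all members 37.0 and 76.7% were lower, and of all genes 13.4 and 11.6%. The call of RPL26 in LIM1215-R1 (-0.15, adjusted p = 0.00402) was lost without replicate 1 or 3 of LIM1215-parental or replicate 2 or 3 of LIM1215-R1 (adjusted p = 0.0376, 0.0273, 0.0106 and 0.0301). It was also lost with the GC and length trends removed (-0.10, adjusted p = 0.054). RPL4, which lines the tunnel, was at -0.05 in LIM1215-R1 (adjusted p = 0.324) and -0.22 in LIM1215-R2 (adjusted p = 7.19e-06). RPL19, at the rim, was at -0.01 in LIM1215-R1 (adjusted p = 0.901) and lower in LIM1215-R2 (-0.15, adjusted p = 0.00101).

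Along the messenger RNA path of the small subunit, 2 of 8 genes were lower in LIM1215-R1, RPS3 and RPS23, the former not without replicate 3 of LIM1215-R1 (adjusted p = 0.0121). In LIM1215-R2 RPS2, RPS3, RPS14, RPS23 and RPS28 were lower. The shares lower in LIM1215-R1 and LIM1215-R2 were 37.0 and 76.7% of all members, and 13.4 and 11.6% of all genes. RPS15 (0.03 and -0.12) and RPS26 were not called in either line. RPS26 was at 140, 156 and 133 CPM in LIM1215-parental, 146, 192 and 173 CPM in LIM1215-R1 and 143, 153 and 178 CPM in LIM1215-R2. The groups overlapped, and its value in LIM1215-R1 of 0.25 (adjusted p = 0.0112) lay just outside the threshold. It was called higher in 7 of 15 alternatives (adjusted p down to 0.000171, under the replicate block), among them leaving out replicate 2 of LIM1215-parental, replicate 1 of LIM1215-R1 or replicate 3 of LIM1215-R2, and its adjusted p was 0.115 with DESeq2. Of the genes made as fusions with ubiquitin or a ubiquitin-like protein, RPS27A was lower in LIM1215-R2 (-0.28, adjusted p = 4.87e-05), while FAU was at -0.14 (adjusted p = 0.0403). RACK1, a small subunit scaffold for kinases whose symbol the choice does not cover, was at 0.04 in LIM1215-R1 and lower in LIM1215-R2 (-0.19, adjusted p = 0.00164). This call was lost without replicate 2 of LIM1215-parental or replicate 1 or 2 of LIM1215-R2 (adjusted p = 0.0105, 0.0248 and 0.018).

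Of 6 paralogs of ribosomal protein genes tested, 3 were higher in LIM1215-R1 and 1 in LIM1215-R2, against 14.0 and 12.3% of all genes. RPL22L1, a close copy of RPL22 that can take its place in the ribosome, was at 111, 95.6 and 120 CPM in LIM1215-parental, 282, 226 and 236 CPM in LIM1215-R1 and 266, 231 and 231 CPM in LIM1215-R2. Both resistant lines lay above the parental one, with log2 fold changes of 1.18 (SE 0.076, adjusted p = 6.2e-13) and 1.15 (SE 0.076, adjusted p = 1.05e-12). The representative transcripts of RPL22L1 and RPL22 are of similar length (1902 and 2061 bases). The CPM ratio of RPL22L1 to RPL22 was 0.357, 0.329 and 0.383 in the parental libraries, 1.22, 1.07 and 1.17 in LIM1215-R1 and 1.29, 1.12 and 1.15 in LIM1215-R2. Its mean rose from 0.357 ± 0.027 to 1.15 ± 0.078 and 1.19 ± 0.091 (SD, n = 3), and both genes kept their calls and directions against the parental line in all alternatives run for them. The windows above show a pyrimidine run at the start of both.

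RPS27L, a copy of RPS27 that is also a p53 target, was at 71.2, 72.7 and 75.3 CPM in LIM1215-parental, 92.8, 97.3 and 91.1 CPM in LIM1215-R1 and 71.8, 79.7 and 71.4 CPM in LIM1215-R2. It was higher in LIM1215-R1 (log2 fold change 0.36, adjusted p = 1.18e-05) and lower in LIM1215-R2 than in LIM1215-R1 (-0.34, adjusted p = 0.000147), with LIM1215-R2 overlapping the parental line. RPS27 itself was at 593, 583 and 581 CPM in LIM1215-parental, 502, 512 and 510 CPM in LIM1215-R1 and 473, 446 and 468 CPM in LIM1215-R2. Its 3 lines did not overlap (-0.21 and -0.34 against the parental line). RPL36AL was higher in LIM1215-R1 (0.23, adjusted p = 0.000233) and at 0.09 in LIM1215-R2. RPL26L1, RPL39L and RPL7L1 were not called (fitted values between -0.11 and 0.45), and RPL3L and RPL10L, at 0 or close to it, were not tested.

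**Figure D3:**
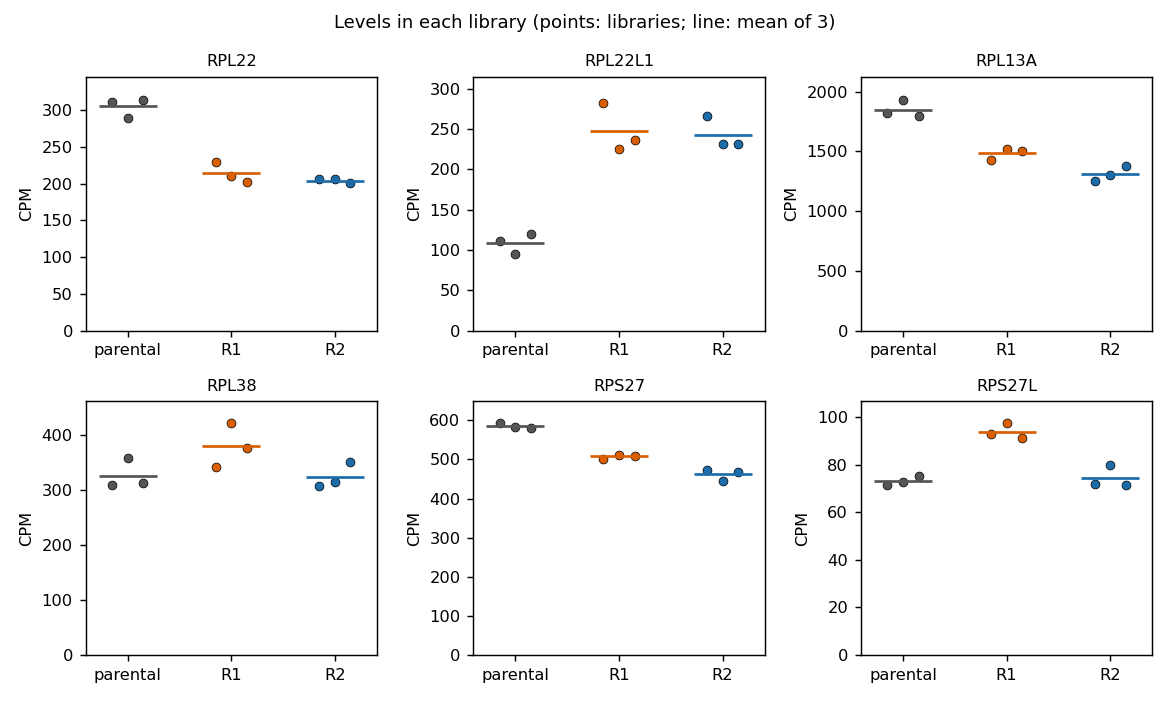
CPM of RPL22, RPL22L1, RPL13A, RPL38, RPS27 and RPS27L in each library, with the mean of 3 as a line and axes from 0. RPL22 falls from 290 to 314 CPM in the parental line to 201 to 230 CPM in the resistant lines, while RPL22L1 rises from 95.6 to 120 CPM to 226 to 282 CPM.

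The 5 symbols below the floor encode proteins that ribosomes also contain. Among them RPS10 had 602 counts over all libraries, RPS9 242, RPL36A 111 and RPS18 10, while the members with the fewest counts were RPL17 with 1409 and RPL39 with 10349. In GENCODE 44, RPL17, RPL36A and RPS10 share same-strand exons with the readthrough genes RPL17-C18orf32, RPL36A-HNRNPH2 and RPS10-NUDT3, which had 0 counts. In hg38, 74.2% of the 31-base words of RPS18 and 84.2% of those of RPS9 also lie on alternate sequences. Whether the authors' alignment index held these sequences, and the cause of the low counts, was not tested. For the 73 members, a median of 47.6% of the words of a transcript recur elsewhere on the chromosomes, from 6.0 to 100% among members, so that the split of reads between gene and copies is uncertain. Pseudogenes named after members held 118365 counts, 1.56% of the members' own. This share varied between members. It was 7.45% for RPS2, and the pseudogenes of RPL17 held 1236 counts against 1409 for the gene. Those of RPS28 held 7565 against 40724, and those of RPL38 held 7 against 50118. Among the 37 members with at most 50% of words elsewhere, 13 were lower in LIM1215-R1, 28 in LIM1215-R2 and 16 in LIM1215-R2 against LIM1215-R1. Of all 73 members 37.0, 76.7 and 46.6% were lower in these comparisons, and of all genes 13.4, 11.6 and 3.77%.

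Genes around the ribosome did not all move with it. As a background for the counts, 14.0% of all genes tested were higher and 13.4% lower in LIM1215-R1, and 12.3 and 11.6% in LIM1215-R2. Of 14 genes for translation factors and other proteins with 5′ TOP mRNAs, 9 were lower in LIM1215-R1 and 9 in LIM1215-R2 (median log2 fold changes of -0.18 and -0.26). TPT1, a growth-related protein, was at 2600, 2390 and 2560 CPM in LIM1215-parental, 2310, 2030 and 2140 CPM in LIM1215-R1 and 1880, 1910 and 1890 CPM in LIM1215-R2 (-0.22 and -0.41, adjusted p = 5.27e-05 and 2.16e-09). EIF3F, an initiation factor subunit, was lower by the same measure (-0.23 and -0.42), and so were EIF4B (-0.30 and -0.28) and HNRNPA1 (-0.30 and -0.27). EEF2, the translocation factor, was higher in LIM1215-R1 (0.19, adjusted p = 3.54e-05) and at 0.07 in LIM1215-R2. Of 17 other initiation factors tested, 9 rose and 1 fell in LIM1215-R1, and the counts in LIM1215-R2 were 8 and 1. EIF4G2 was higher by 0.41 and 0.35 and EIF4G1 by 0.30 and 0.31.

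Nucleolar assembly factors had medians above 0 in both resistant lines. Of 51 such factors, 25 rose and 1 fell in LIM1215-R1, and 24 rose in LIM1215-R2, with medians of 0.18 and 0.17. Over all genes tested, 14.0% were higher and 13.4% lower in LIM1215-R1, and 12.3 and 11.6% in LIM1215-R2. RRP9, a component of the small nucleolar particle that processes ribosomal RNA, was at 57.1, 61.8 and 55.9 CPM in LIM1215-parental, 79.9, 89.7 and 78.9 CPM in LIM1215-R1 and 72.8, 79.1 and 81 CPM in LIM1215-R2 (0.51 and 0.42). SBDS, which matures the large subunit, was higher by 0.53 and 0.45. MDN1, a remodeller of large subunit precursors, was lower in LIM1215-R1 (-0.42, adjusted p = 1.47e-07) and at -0.03 in LIM1215-R2. Of 13 RNA polymerase I genes tested, 4 were higher and 1 lower in each resistant line, POLR1G and TAF1A being higher and UBTF, a factor that binds ribosomal DNA, lower (-0.29 and -0.16).

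The 78 genes for mitochondrial ribosomal proteins had median log2 fold changes of 0.09 in LIM1215-R1, with 17 higher and 1 lower, and 0.02 in LIM1215-R2, with 6 higher and 3 lower. For this and the next lists, the shares over all genes tested were 14.0% higher and 13.4% lower in LIM1215-R1. In LIM1215-R2 they were 12.3 and 11.6%. Of 13 snoRNA host genes tested, which carry snoRNAs in their introns and in several cases a 5′ TOP motif, 2 rose and 3 fell in LIM1215-R1, and the counts in LIM1215-R2 were 2 and 4. ZFAS1 was at 120, 126 and 118 CPM in LIM1215-parental, 124, 136 and 120 CPM in LIM1215-R1 and 93.1, 88.5 and 92.8 CPM in LIM1215-R2. It was lower in LIM1215-R2 than in LIM1215-parental (-0.41, adjusted p = 9.82e-07) and than in LIM1215-R1 (-0.47, adjusted p = 5.97e-07), and its other lines overlapped. Of 14 regulators of 5′ TOP mRNAs or ribosomal genes, 2 rose and 4 fell in LIM1215-R1, and 3 rose and 5 fell in LIM1215-R2. MYCN, a transcription factor of the MYC family, was at 9.21, 9.75 and 7.51 CPM in LIM1215-parental, 1.72, 2.07 and 1.81 CPM in LIM1215-R1 and 1.25, 1.49 and 1.96 CPM in LIM1215-R2 (-2.23 and -2.49). MXI1, a MYC antagonist, was lower (-0.56 and -0.74), whereas MXD1, another antagonist, was higher (0.39 and 0.49).

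**Figure D4:**
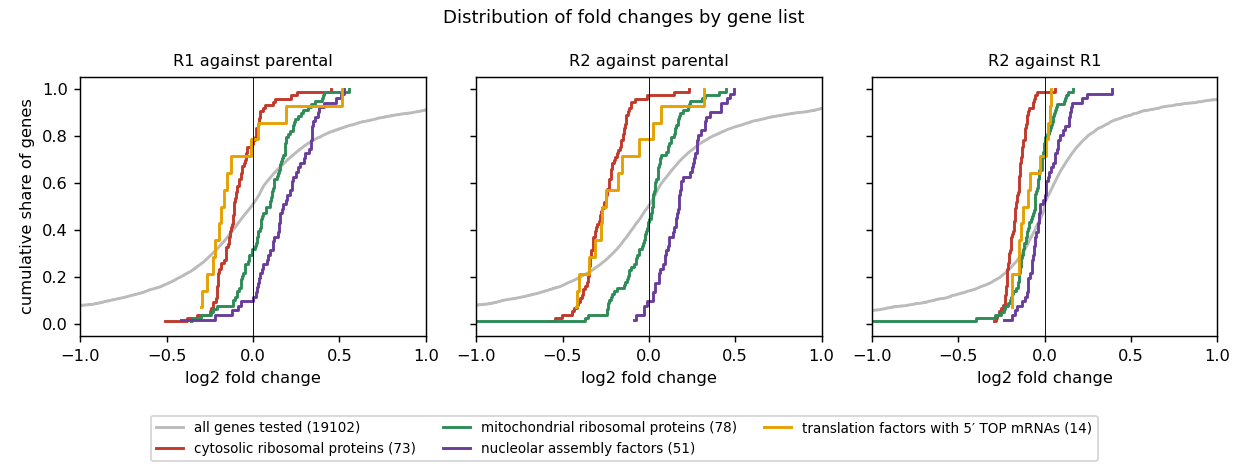
Cumulative share of genes by log2 fold change, shown between -1 and 1, for 73 cytosolic ribosomal proteins, 78 mitochondrial ribosomal proteins, 51 nucleolar assembly factors, 14 translation factors with 5′ TOP mRNAs and all 19102 genes tested, in each comparison. The curve of the cytosolic group lies to the left, with medians of -0.11, -0.26 and -0.17, and that of the assembly factors to the right of 0 against the parental line (0.18 and 0.17).

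Fold changes of the members varied with the GC content of their transcripts, as did differences between some libraries of the same line. Across the 73 genes, Spearman's rho with GC content was 0.34 in LIM1215-R1 and 0.29 in LIM1215-R2 against LIM1215-parental and -0.12 between the resistant lines. These are correlations across genes of the same libraries, which are not independent replicates. Between replicates 2 and 1 of LIM1215-parental rho was 0.52, and between replicates 2 and 1 of LIM1215-R1 it was 0.45. Of 9 pairs within lines, 0.52 was the strongest, followed by -0.47 between replicates 3 and 2 of LIM1215-parental. The sign depends on which library of a pair is subtracted from the other. The rho nearest 0 was 0.05, between replicates 3 and 1 of LIM1215-parental, and in LIM1215-R2 it lay between 0.17 and 0.31. In the 37 genes of GC content up to the median of 47.5%, the median log2 fold change was -0.13 in LIM1215-R1 and -0.28 in LIM1215-R2, and in the 36 above it -0.10 and -0.23. With GC and length trends removed from each library, 38 members were lower in LIM1215-R1 and 61 in LIM1215-R2, with medians of -0.129 and -0.217. The removal covered the 16488 genes with known GC content and length (86.3% of those tested), and the other genes were left uncorrected. Of all 19102 genes, 3429 and 3045 were then lower, against 2555 and 2210 before, with medians of -0.04 and -0.02. Between the resistant lines the median of the members moved from -0.168 to -0.090, and that of all genes was 0.02.

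**Figure D5:**
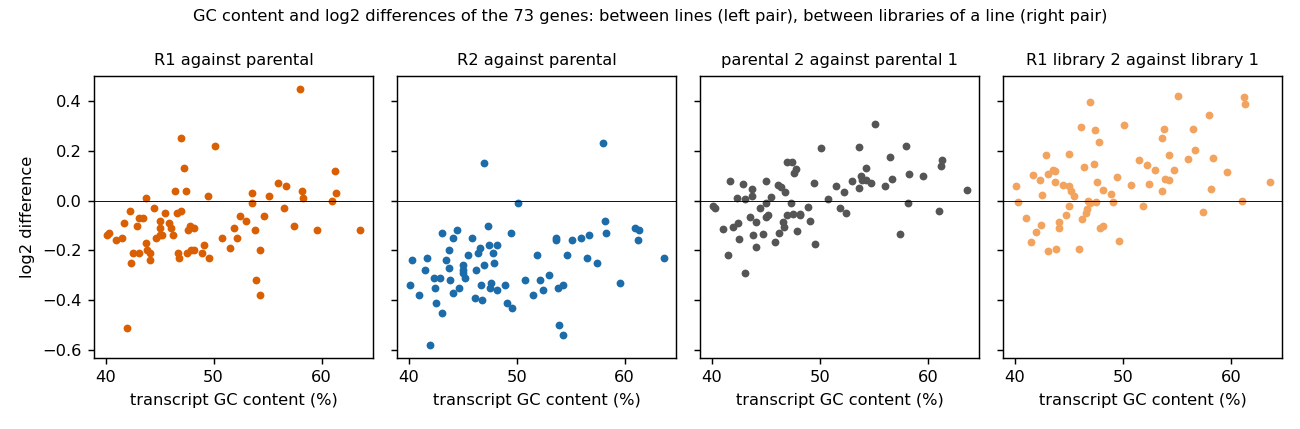
Log2 difference of each of the 73 genes against the GC content of its transcript (%), for LIM1215-R1 and LIM1215-R2 against LIM1215-parental (left pair) and between libraries 2 and 1 of LIM1215-parental and of LIM1215-R1 (right pair). Points rise with GC content in all panels (rho of 0.34, 0.29, 0.52 and 0.45), and the points of the LIM1215-R2 panel lie below 0 for 71 of 73 genes.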

How the data were processed

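Per the study's methods, the authors aligned paired-end reads of stranded poly(A) libraries to hg38 with STAR and deposited gene counts made with HTSeq 0.9.1, reverse strand; the gene annotation is not given in the sources used here. Raw counts were used as deposited. The 19102 genes that summed to 10 counts or more were fitted in edgeR 4.0.16 (TMM, quasi-likelihood, 1 fit of 3 lines). A call was a Benjamini-Hochberg adjusted p of at most 0.01 over all genes, and the fold threshold of the study was counted beside it. The script was tested on simulated data. Named genes were the 5 largest called changes each way per comparison, the 5 highest and lowest per length, genes of listed ribosome regions, RPS6, symbols next to the floor, up to 10 members called between the resistant lines, all paralogs and RACK1, and up to 2 each way in other lists; RPS27 was added after its values were seen, and some genes of the rule are not reported here. Representative transcripts, GC content and length came from GENCODE 44 and promoters from RefSeq. The members and gene lists were chosen with earlier results of these data known. Alternatives were DESeq2 1.42.0 and other scalings, filters, blocks and left-out libraries. The counts carry no molecular identifiers.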

Additional observations from a re-analysis of the deposited data

Results flagged for a closer look

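LIM1215-R2 and LIM1215-R1 differed in their effect against the same parental line, by the direct edgeR test, in 34 of the genes that the rule named and that are reported here. These 34 hold members and other genes, and are not the 34 members counted above. Called members that were not named, or are not reported here, are left out. The values that follow are log2 fold changes of LIM1215-R2 against LIM1215-R1. In the large subunit they were -0.29 for RPL12, -0.26 for RPL9, -0.25 for RPL32, -0.24 for RPL21, -0.23 for RPL27, -0.21 for RPL37, -0.20 for RPL26 and RPL31, -0.19 for RPL10, -0.18 for RPL13A, -0.17 for RPL4 and RPL5, -0.16 for RPL11 and -0.14 for RPL3 and RPL19, with -0.22 for the stalk genes RPLP0 and RPLP1. In the small subunit they were -0.27 for RPS29, -0.23 for RPS12 and RPS28, -0.21 for RPS2 and RPS14 and -0.15 for RPS3. Outside the group they were -0.34 for RPS27L, -0.22 for RACK1, -0.28 for EIF3B, -0.19 for TPT1, -0.16 for EIF1, -0.15 for EEF1G, -0.47 for ZFAS1, -0.28 for SNHG5, -0.21 for SNHG29, 0.39 for MDN1 and 0.22 for UTP20. Calls in this comparison changed with single libraries, as given with the counts of members. Of the members listed, RPL3, RPL11 and RPL19 lost their calls most often, in 9, 7 and 6 of 15 alternatives.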

How the results depend on the processing

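The median change of the members kept its sign in all alternatives run. In LIM1215-R2 against LIM1215-R1 it moved to -0.09 with the GC and length trends removed, with or without the replicate block; with single libraries left out it ran from -0.121 to -0.101 (LIM1215-R1), -0.287 to -0.244 (LIM1215-R2) and -0.202 to -0.150 (between the resistant lines). Members lower in LIM1215-R1 numbered 17 to 28 with a library left out, against 10.8 to 13.5% of all genes. They numbered 45 with the block and the trends removed, against 19.2%. In LIM1215-R2 the range with a library left out was 51 to 58, against 9.36 to 12.7%. Between the resistant lines it was 9 to 46, against 2.38 to 4.64%. There it was 54 under the replicate block, against 5.33%. At an adjusted p of at most 0.05 it was 56, a threshold at which all genes were not counted. The 37 members with few recurring words, chosen after seeing the data, gave 13, 28 and 16, against 13.4, 11.6 and 3.77% of all genes. Members higher in LIM1215-R1 numbered 1 with total counts, with at least 10 counts in every library and in the 6 libraries of the contrast. Of all genes, 12.4, 19.0 and 13.8% were higher in these fits. Such members numbered 4 without the filter and under the block with or without trends removed, against 10.1, 15.6 and 15.5% of all genes. They also numbered 4 at 0.05, and 1 to 5 with a library left out, the latter against 11.9 to 14.3% of all genes. In LIM1215-R2 they numbered 0 with total counts, with at least 10 counts in every library and with DESeq2, against 11.5, 16.3 and 11.5% of all genes. With the block and trends removed 2 members were higher, against 15.6%. With a library left out the number was 0 to 1, against 10.4 to 13.3%. The share of counts was 6.17, 5.56 and 5.01% without mitochondrially encoded genes and 7.10, 6.52 and 5.83% without the 100 other genes of highest count; with a library left out it was 5.70 to 5.74%, 5.12 to 5.24% and 4.59 to 4.73%. Correlations of same-numbered libraries ran from -0.106 to 0.274, and those of differently numbered libraries from -0.265 to 0.191. These ranges overlap and do not settle whether the numbers pair the samples. The replicate block gave 33, 64 and 54 members lower, against 15.1, 13.2 and 5.33% of all genes. The lowest count of a member in a library was 108 for RPL17 and 902 for RPL39, so that depth limited RPL17 most. The cause of these changes was not tested.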
